A study of Mus musculus with 4 samples.

Results

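The strongest E2F1 binding sites of mouse embryonic stem cells (ESCs) were taken as the peaks whose mean normalized signal over the 4 deposited samples was at least 200. They were 416 of 4523 peaks (9.2%). The members were thus chosen by the measured signal itself, in serum and 2i together, so that their height is a description and not a finding, and a peak that is high in only a single condition can enter. Chromatin immunoprecipitation with an antibody against E2F1 followed by sequencing (ChIP-seq) had been done on 4 samples, 2 biological replicates in serum and 2 in 2i, each adapted to its condition for longer than 20 days. Serum ESCs were kept in serum with LIF. The 2i ESCs were kept in serum-free medium with LIF and a pair of inhibitors, PD0325901, an inhibitor of the MEK kinases that switch on ERK, and CHIR99021, an inhibitor of GSK3. The genotype and the ESC line of these samples are not given in the sources used here. No input or control immunoprecipitation was analysed here. Expression markers cannot be read from ChIP-seq, so the ESC label was not checked against RNA.

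E2F1 is an activator of the E2F family of transcription factors. It binds DNA as a dimer with a DP protein, mostly at promoters rich in CpG, and is held inactive by RB and its relatives until cyclin-dependent kinases phosphorylate them. The family is best known for genes of S-phase entry, DNA replication and nucleotide supply, and the comparison of serum with 2i asks whether its occupancy differs between the 2 conditions.

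The sequences under the highest peaks were rich in G and C and held GC boxes, the GGGCGG letters that SP family factors bind, more often than E2F words. The GC box is made of G and C only, while E2F words also hold T or A. Base composition alone thus favors the GC box here. At Grb10, the highest peak, no GC box lay within 100 bp of the centre. The stretches shown for the second to sixth highest placed peaks are 120 bases at or nearest to the peak centre that hold no annotated exon, read 5′ to 3′ on the plus strand of NCBIM37 (mm9), with every GGGCGG or its complement CCGCCC in capitals. They come from chr14:115440606-115440725 for Mir17hg, chr3:137530518-137530637 for Dnajb14, chr4:46464512-46464631 for Anp32b, chr1:38186508-38186627 for Rev1 and chr6:122289730-122289849 for Phc1.
Mir17hg: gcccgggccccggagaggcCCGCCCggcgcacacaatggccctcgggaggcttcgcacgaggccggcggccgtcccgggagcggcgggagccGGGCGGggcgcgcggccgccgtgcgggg
Dnajb14: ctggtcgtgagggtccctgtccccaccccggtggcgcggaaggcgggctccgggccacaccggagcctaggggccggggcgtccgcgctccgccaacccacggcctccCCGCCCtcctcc
Anp32b: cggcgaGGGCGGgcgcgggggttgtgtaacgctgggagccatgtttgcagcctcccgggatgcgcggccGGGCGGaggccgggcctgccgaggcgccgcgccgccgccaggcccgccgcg
Rev1: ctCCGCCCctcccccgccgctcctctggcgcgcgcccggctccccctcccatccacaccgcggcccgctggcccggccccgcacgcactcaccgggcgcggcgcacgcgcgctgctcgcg
Phc1: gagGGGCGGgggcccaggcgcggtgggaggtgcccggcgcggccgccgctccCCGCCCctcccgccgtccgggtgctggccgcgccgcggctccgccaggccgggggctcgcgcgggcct
Between 79.2% and 88.3% of the bases in these 5 stretches were G or C.

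The highest peak of all, at the Grb10 promoter, held repeated sequence. Its stretch at chr11:11926366-11926485 is shown with capitals on every base that lies in a 12-base word found more than once within the peak.
Grb10: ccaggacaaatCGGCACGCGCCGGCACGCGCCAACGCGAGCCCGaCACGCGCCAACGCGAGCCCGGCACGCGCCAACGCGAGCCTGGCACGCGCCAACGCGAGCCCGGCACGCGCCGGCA
Of all 12-base words in the whole Grb10 peak, 19.3% occurred more than once. The median over the members was 0.871%, against 0 over all peaks, and Grb10 had the fourth largest share. Members are longer than other peaks, and the share was not adjusted for length.

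A canonical E2F site was written as TTTCCCGC, TTTCGCGC, TTTGCCGC or TTTGGCGC, on either strand. Within 100 bp of the peak centre it was found in 7 of the 414 members that could be placed on the genome. These 7 are shown with the word in capitals, over 60 bases, or over 30 where an annotated exon overlaps. They lie at chr16:30063547-30063606 for Hes1, chr9:120842767-120842826 for Ctnnb1, chr14:76245342-76245401 for Tpt1, chr17:27694065-27694124 for Hmga1, chr15:88692928-88692957 for Pim3, chr1:72258820-72258849 for Mreg and chr8:77517863-77517922 for Hmgxb4.
Hes1: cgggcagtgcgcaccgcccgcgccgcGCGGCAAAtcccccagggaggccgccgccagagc
Ctnnb1: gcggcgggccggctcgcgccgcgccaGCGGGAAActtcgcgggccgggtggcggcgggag
Tpt1: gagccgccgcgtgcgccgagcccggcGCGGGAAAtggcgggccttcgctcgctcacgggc
Hmga1: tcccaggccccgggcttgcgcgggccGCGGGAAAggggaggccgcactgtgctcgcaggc
Pim3: cgtctacgcgcTTTCGCGCggccaccgggc
Mreg: cgagctgcgcgTTTGCCGCgggagcttttc
Hmgxb4: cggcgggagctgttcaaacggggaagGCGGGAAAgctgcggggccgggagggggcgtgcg
The word lay nearest to the centre at Tpt1, 12 bp away, and farthest at Mreg, 91 bp away.

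The values rise in even steps within each sample, as read counts divided by a factor for each sample would. Read numbers were estimated by taking that step as 1 read, which is an assumption, since the smallest value of 3 samples was 2 or more steps and a larger true number of reads per step is possible. By this estimate, reads in peaks ranged from 248885 in serum replicate 1 to 710519 in 2i replicate 1. A member held between 50 and 4511 reads in a sample, and the median member held 169.5 and 302 in the serum replicates and 439 and 252 in the 2i replicates, so that single-sample values of members rest on more reads than those of the typical peak, which had medians from 35 to 111. Members took 34.2% of the reads in peaks in each serum sample and 28.8% and 31.7% in the 2i replicates. All 4 samples were at or above 200 in 236 members (56.7%).

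The members ran from 200.1 at Rap1b to 2572 at Grb10, with a median of 273, and 41 of them reached 500. The 4 just inside the threshold were at Rap1b (mean 200.1), Epm2a (200.2), Vegfc (200.2) and Fasn (200.4). The 4 just outside were at Memo1 (199.5), Capza2 (199.4), Kpna1 (199.1) and Lifr (198.7). Genes are named by the nearest transcript start and are not shown to be regulated by the peak.

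Grb10 encodes an adaptor protein that restrains insulin receptor signaling and is imprinted. Its peak, chr11:11926141-11926712 with its centre 99 bp upstream of a start, had a signal of 1101 and 3624 in serum replicates 1 and 2 and of 858 and 4706 in 2i replicates 1 and 2. Replicate 2 was high and replicate 1 low in both conditions, and the conditions overlapped fully. The log2 fold change of serum over 2i was -0.01 with a standard error (SE) of 0.75 (limma, adjusted p = 0.995 after Benjamini-Hochberg over all peaks), and it was -0.79 after cyclic loess normalization, which removes a trend of the fold change with signal. No other member had so high a mean, but the order of Grb10 against Mir17hg depended on the replicate, since Mir17hg was higher in replicate 1 of both conditions.

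Mir17hg is the host gene of the miR-17-92 cluster, a group of microRNAs that act on regulators of the cell cycle and of apoptosis. Its peak at chr14:115439810-115441523 was centred 1435 bp upstream of the nearest start and measured 3087 and 2100 in serum and 1072 and 904 in 2i. Both serum values lay above both 2i values, a mean of 2594 ± 698 (SD, n = 2) against 988 ± 118 (SD, n = 2), and it was called with a log2 fold change of 1.37 ± 0.39 (SE, limma adjusted p = 0.108), where a call needs a log2 fold change past 1 and an unadjusted p under 0.05. After cyclic loess normalization it was 0.67 and no longer called, and without serum replicate 1 it was 1.09 and past the fold threshold but not the p threshold. A fit with a library left out sets 1 sample against 2, so that the other condition alone gives the spread within a peak and the lone sample is assumed to vary like it.

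Phc1 encodes a subunit of polycomb repressive complex 1. Its promoter peak, chr6:122289440-122290141, measured 903 and 2020 in serum and 357 and 306 in 2i. The serum replicates differed by 1.16 on the log2 scale but neither reached down to 2i, and the peak was called higher in serum with a log2 fold change of 2.03 ± 0.38 (SE, limma adjusted p = 0.0308). It was the only one of the 12 highest peaks to pass the adjusted threshold.

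The remaining peaks among the 12 highest passed neither threshold. Rev1, which encodes a translesion DNA polymerase, measured 542 and 828 in serum, 471 and 2086 in 2i, and 2i replicate 2 was the highest of the 4 by more than 2-fold. Mllt6, at 577 and 988 in serum and 490 and 1220 in 2i, had replicate 2 above replicate 1 in both conditions. Dnajb14, a co-chaperone gene, measured 1700 and 997 in serum and 864 and 990 in 2i. The histone chaperone gene Anp32b measured 1340 and 1207 in serum and 789 and 905 in 2i, a log2 fold change of 0.59 (limma adjusted p = 0.362) that was 0.017 after cyclic loess normalization. Serum was above 2i in every replicate at Dnajb14, Anp32b, Srsf6, Actg1 and a peak on an unplaced contig, and the values overlapped at Grb10, Rev1, Mllt6, Rybp and Ubtf. Srsf6 encodes a splicing factor, Actg1 a cytoskeletal actin and Ubtf the activator of ribosomal RNA transcription.

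**Figure D1:**
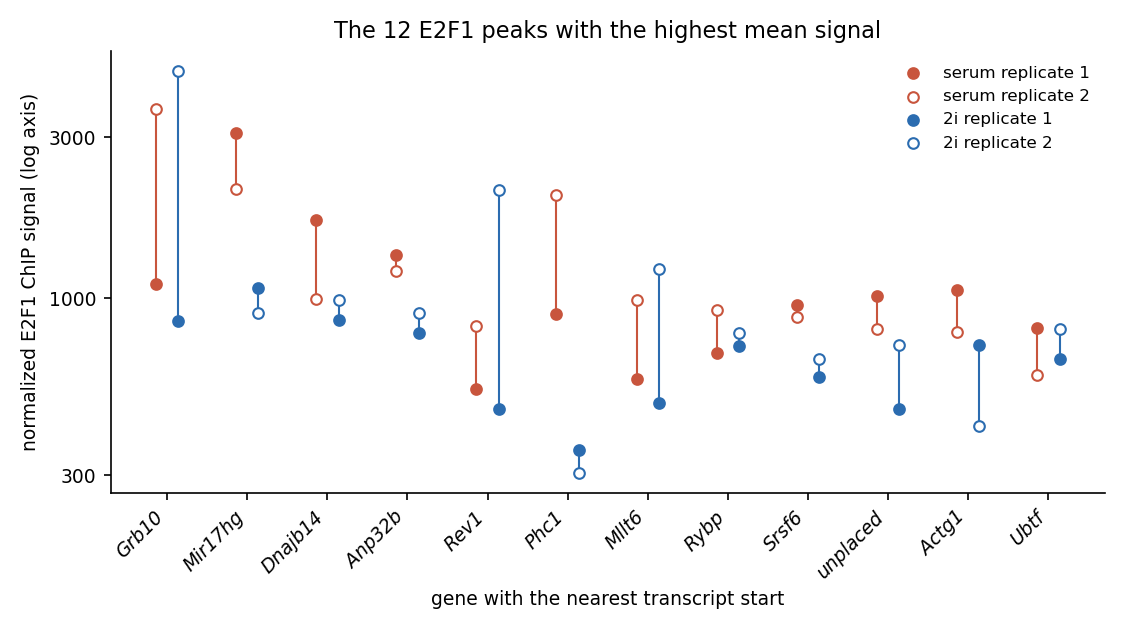
Normalized E2F1 ChIP signal (log axis) of the 12 peaks with the highest mean, named by the gene with the nearest transcript start. Filled points are replicate 1, open points replicate 2, and lines join the replicates of a condition; Grb10 ran from 858 to 4706, and at Phc1 both 2i values lay under both serum values.

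The median absolute log2 ratio of replicate 2 over replicate 1 was 0.24 in serum and 0.30 in 2i, against 0.36 and 0.33 over all peaks. The replicates differed by more than 2-fold at 10 members in serum (2.4%) and 19 in 2i (4.57%), where the shares of all peaks were 10.7% and 7.45%. Peaks with a mean from 100 to 200 had medians of 0.28 and 0.27 and shares of 3.83% and 3.6%, so that in 2i this weaker band differed less between replicates than the members did. Replicate 2 was above replicate 1 in both conditions at 118 members and below it in both at 108. Only Grb10 and Lmln differed by more than 2-fold in the same direction in both conditions. Lmln, which encodes a metallopeptidase, measured 383 and 134 in serum and 216 and 93.9 in 2i. Tsc22d1, a transcriptional regulator gene, measured 392 and 193 in serum and 288 and 173 in 2i, again with replicate 1 high. Whether same-numbered replicates share a day or a batch is not stated in the labels.

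The steadiest members over all 4 samples were a U3 small nucleolar RNA gene on chromosome 11 (223, 215, 218 and 217, in the order serum 1, serum 2, 2i 1, 2i 2), Fbxl17 (242, 240.2, 249.7 and 248), Ctnnb1 (345, 337, 357 and 342) and Zfp292 (249, 245, 260 and 258). Ctnnb1 encodes β-catenin, whose turnover is controlled by GSK3. Its log2 fold change was -0.03 ± 0.25 (SE, limma adjusted p = 0.959), and it is among the 7 members that hold a canonical E2F word near the centre. After cyclic loess normalization it was -0.30 at Ctnnb1, -0.23 at Fbxl17, -0.26 at Zfp292 and -0.14 at U3. The steadiness thus holds on the deposited scaling. The coefficient of variation over the 4 samples was 1.51% at U3, 21.4% at the median member and 106% at Tbc1d10b.

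**Figure D2:**
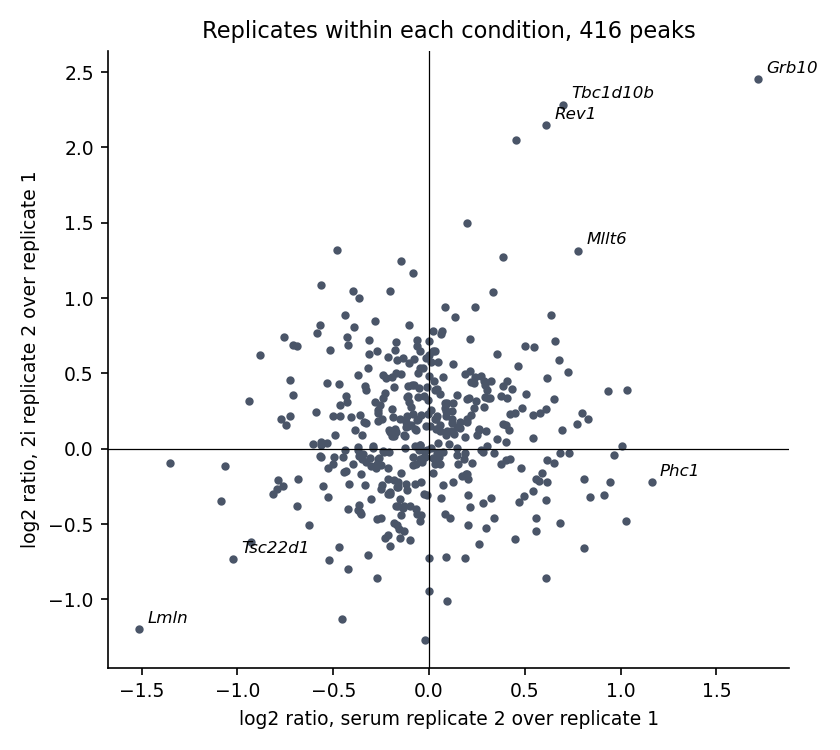
Log2 ratio of replicate 2 over replicate 1 in serum (horizontal axis) and in 2i (vertical axis) for each of the 416 members. Grb10 lies at 1.72 and 2.45 and Lmln at -1.51 and -1.20, and Tbc1d10b, Rev1 and Ccdc64 have 2i ratios of 2.28, 2.15 and 2.05.

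Each peak was tested for a difference between serum and 2i with limma over all 4523 peaks, and called at a log2 fold change past 1 with an unadjusted p under 0.05. Of the members, 33 (7.93%) were called, against 10.3% of all peaks. The order of these shares turned without 2i replicate 2 (11.3% of members, 9.13% of all peaks), without 2i replicate 1 (8.41% and 8.36%), with a minimum mean of 50 (7.93% and 6.88%) and with a pseudocount of 8 (7.45% and 7.01%). The direction was uneven, with 30 members higher in serum (7.21%, all peaks 4.82%) and 3 higher in 2i (0.721%, all peaks 5.48%). After Benjamini-Hochberg adjustment 16 members were called (3.85%, all peaks 1.46%), and these 16 were all higher in serum (all peaks 1.15%). Adjusted calls ended without a variance trend (0 members and 0 of all peaks), and with the replicate block they numbered 33 members, 3 of them higher in 2i. Between 2 and 3 members were called higher in 2i after adjustment with each of cyclic loess normalization, rescaling to the same total, a minimum mean of 50 and a pseudocount of 8. In that order, adjusted calls in either direction took 2.88% of members (all peaks 1.61%), 4.33% (1.70%), 4.33% (2.20%) and 4.57% (1.79%). The share of all peaks higher in 2i was not computed for these settings. With a library left out, 0 to 4 members passed adjustment, whichever library it was, and the smaller design was not told apart from the library. Before adjustment, calls toward serum and toward 2i numbered 26 and 1 without serum replicate 1 (6.49% of members, 9.33% of all peaks), and 39 and 6 without serum replicate 2 (10.8% of members, 14.9% of all peaks). The counts were 25 and 10 without 2i replicate 1 and 43 and 4 without 2i replicate 2. Serum and 2i values did not overlap, with serum higher, at 176 members (42.3%, all peaks 24.9%), and with 2i higher at 41 (9.86%, all peaks 24.4%). This split, and its counts within the gene lists below, were not recounted after cyclic loess normalization.

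The split by direction moved with the scaling. The median log2 fold change was 0.21 over the members and -0.03 over all peaks. By band of mean signal it was -0.19 under 50, -0.01 from 50 to 100, 0.03 from 100 to 200 and 0.21 at 200 and over. Cyclic loess normalization, which takes out such a trend, brought the medians to -0.02 over the members and -0.02 over all peaks. It left 16 members called higher in serum (3.85%, all peaks 5.13%) and 7 higher in 2i (1.68%, all peaks 3.67%). The share of members called higher in serum thus went from above that of all peaks to below it. Of the 30 members first called higher in serum 14 were no longer called, while the 3 higher in 2i were kept.

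**Figure D3:**
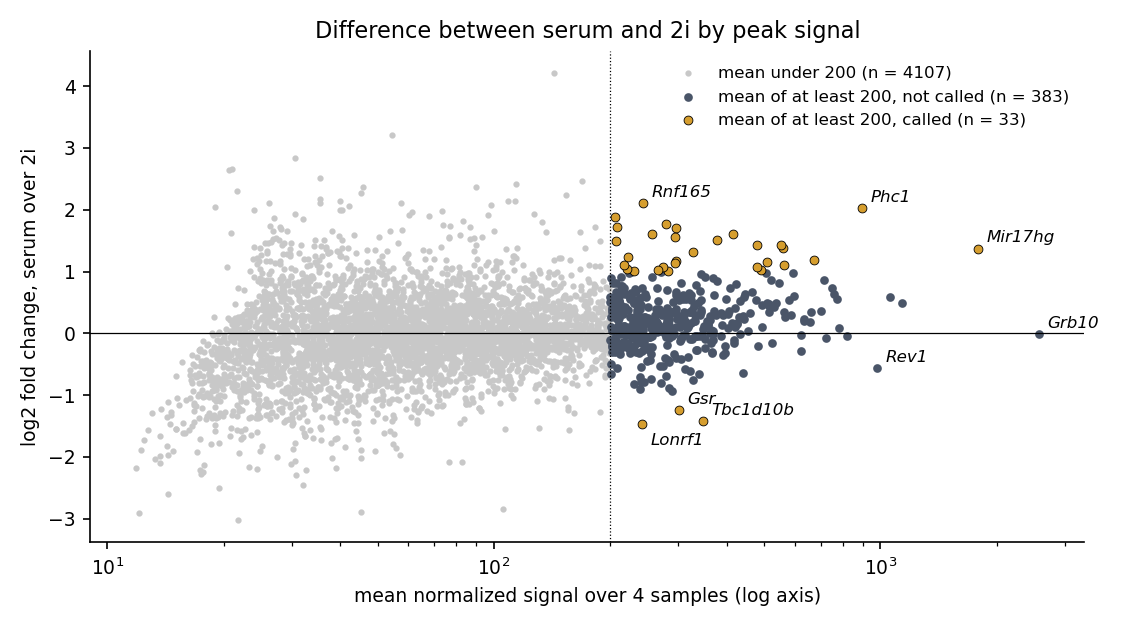
Log2 fold change of serum over 2i against mean normalized signal (log axis) for all 4523 peaks; the dotted line is the threshold of 200. Called members are yellow, 30 above 0 and 3 below.

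Among members whose conditions did not overlap, the largest fold change toward serum was at Rnf165, which encodes a RING finger ubiquitin ligase. The peak, chr18:77803641-77804385, measured 366 and 421 in serum and 108 and 76.2 in 2i. Its log2 fold change was 2.10 ± 0.26 (SE, limma adjusted p = 0.00597). Both 2i values lay under the threshold on the mean that defines members, so it was a strong peak in serum only. Zfp532, also on chromosome 18, measured 784 and 820 in serum and 237 and 401 in 2i, with a log2 fold change of 1.38 (limma adjusted p = 0.0593), which without 2i replicate 1 was 0.999 and not called.

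Slc38a2 and Slc7a5 encode amino acid transporters, and Slc7a5 was chosen after its values were seen. Slc38a2 measured 312 and 336 in serum and 102 and 74.1 in 2i, so that it is a strong peak in serum only, and its log2 fold change was 1.89 ± 0.26 (SE, limma adjusted p = 0.00867). Slc7a5 measured 646 and 478 in serum and 194 and 193 in 2i, with a log2 fold change of 1.52 (limma adjusted p = 0.0227). The 2i replicates of Slc7a5 lay closer together than its serum replicates. Its 2i values were also under the threshold that defines members.

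Ctbp2 and Tle4 encode transcriptional corepressors and were both higher in serum. Ctbp2 measured 453 and 409 in serum and 105 and 148 in 2i, a log2 fold change of 1.78 ± 0.26 (SE, limma adjusted p = 0.0121). Tle4, a Groucho family gene, measured 458 and 439 in serum and 109 and 174 in 2i, a log2 fold change of 1.70 (limma adjusted p = 0.0173). Adam23, which encodes a membrane protein of the disintegrin family, measured 305 and 325 in serum and 134 and 66.8 in 2i (log2 fold change 1.72, limma adjusted p = 0.0308). Ext1, a heparan sulfate polymerase gene, was chosen after its values were seen for how closely its replicates agreed, at 402 and 369 in serum and 126 and 126 in 2i (log2 fold change 1.60, limma adjusted p = 0.0124). Each of these 4 peaks stayed above a log2 fold change of 1 after cyclic loess normalization, between 1.45 and 1.62. At each of them both 2i values were under the threshold that defines members, so they were strong peaks in serum only.

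Toward 2i, the largest change was at Lonrf1, a RING finger gene, with 87.1 and 178 in serum and 304 and 398 in 2i. Its log2 fold change was -1.47 ± 0.33 (SE, limma adjusted p = 0.06). Both serum values of Lonrf1 lay under the threshold that defines members, so it was a strong peak in 2i only. Gsr, which encodes glutathione reductase, measured 143 and 218 in serum and 382 and 459 in 2i, with a log2 fold change of -1.24 (limma adjusted p = 0.06). Without serum replicate 1 neither was called, at -0.96 for Lonrf1 and -0.94 for Gsr. The third called member, Tbc1d10b, rested on a single library, with 118 and 193 in serum, 184 in 2i replicate 1 and 897 in 2i replicate 2, and its conditions overlapped.

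Stretches of 100 bases near the centre are shown for a pair of peaks called higher in serum and the pair called higher in 2i without overlap, with GGGCGG or its complement in capitals. They lie at chr7:140313925-140314024 for Ctbp2, chr15:96529584-96529683 for Slc38a2, chr8:37311520-37311619 for Lonrf1 and chr8:34764252-34764351 for Gsr.
Ctbp2: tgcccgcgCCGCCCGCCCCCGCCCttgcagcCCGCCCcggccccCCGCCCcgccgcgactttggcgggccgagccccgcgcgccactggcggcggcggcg
Slc38a2: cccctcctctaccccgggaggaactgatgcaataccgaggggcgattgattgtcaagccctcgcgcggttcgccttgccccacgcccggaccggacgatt
Lonrf1: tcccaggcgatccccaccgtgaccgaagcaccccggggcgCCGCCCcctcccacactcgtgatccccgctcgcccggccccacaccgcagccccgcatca
Gsr: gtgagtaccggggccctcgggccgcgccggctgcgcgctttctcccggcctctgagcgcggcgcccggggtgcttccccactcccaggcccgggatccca
The Ctbp2 stretch held 5 GC boxes, that of Lonrf1 held 1, and those of Slc38a2 and Gsr held none.

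Of 19 gene lists, 10 had members and 9 had none, and 58 of the 416 members were nearest to a gene of some list. The E2F family list, which also holds DP partners, pocket proteins and proteins of the complexes that these form, had 3 members among 15 peaks (20%), where members were 9.2% of all peaks. E2f1 itself measured 270.1 and 275 in serum and 226 and 309 in 2i, and the conditions overlapped (log2 fold change 0.04, limma adjusted p = 0.944). Tfdp1, which encodes the DP1 partner, measured 340 and 535 in serum and 359 and 336 in 2i. Rybp, a polycomb protein that also binds E2F factors, measured 692 and 923 in serum and 725 and 789 in 2i. None of the 3 was called, and Rybp itself is neither an E2F, a DP nor a pocket protein.

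The list of G1/S cyclins, kinases and inhibitors had 1 member among 11 peaks (9.09%), close to the 9.2% of all peaks. This was Ccne1, which encodes cyclin E1. It measured 375 and 341 in serum and 266 and 202 in 2i, with serum above 2i in each replicate but a log2 fold change of 0.62 (limma adjusted p = 0.238), short of the threshold on size. No member was nearest to a gene of the lists for DNA replication (8 peaks, highest mean 154), nucleotide supply (5 peaks, highest 63.5), DNA repair (12 peaks, highest 197) or mitosis (8 peaks, highest 190.2). The same held for germ-line genes (4 peaks), the Myc and Max network (8 peaks), apoptosis (8 peaks), the mitochondrial ribosome (6 peaks) and the proteasome (2 peaks). With members at 9.2% of all peaks and so few peaks in each of these lists, a count of 0 is not read as a difference. When every protein-coding start within 1000 bp of the centre was counted in place of the nearest, the replication and the germ-line lists gained 1 member each.

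The list of ERK-induced and feedback genes had 5 members among 18 peaks (27.8%), and 3 of the 5 were called higher in serum, where 7.21% of members and 4.82% of all peaks were. The list was chosen with earlier results of these data known, so this count is a description. PD0325901 acts upstream of ERK in 2i, and whether that bears on these peaks was not tested. Spry2, a feedback inhibitor of receptor tyrosine kinase signaling, measured 831 and 560 in serum and 190.3 and 337 in 2i, a log2 fold change of 1.43 ± 0.33 (SE, limma adjusted p = 0.067). Mcl1, an anti-apoptotic BCL2 relative, measured 915 and 950.3 in serum and 362 and 465 in 2i (log2 fold change 1.18, limma adjusted p = 0.0761). Spred1, which restrains RAF activation, measured 390.3 and 433 in serum and 188 and 175 in 2i (log2 fold change 1.17, limma adjusted p = 0.041). Both 2i values of Spred1 lay under the threshold that defines members. Jund and Klf10, both transcription factor genes, had log2 fold changes of 0.53 and 0.39 and were not called. The median of the 5 was 1.17, against 0.21 over the members and -0.03 over all peaks. After cyclic loess normalization only Spry2 stayed past a log2 fold change of 1, at 1.12, with Spred1 at 0.97 and Mcl1 at 0.76, and the median of the 5 was 0.76. Pim3, a kinase gene outside this list that holds a canonical E2F word, was also called higher in serum, at 401 and 342 against 155 and 200.3.

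Replication-dependent histone genes, whose transcripts are made in S-phase, had 6 members among 33 peaks (18.2%). All 6 had log2 fold changes above 0, between 0.54 and 1.04 (median 0.84), and serum lay above 2i without overlap at 5 of them. Over all members 70.9% had a log2 fold change above 0 and 42.3% had serum above 2i without overlap, and over all peaks 47.8% and 24.9%. After cyclic loess normalization their median was 0.63. Hist1h2ai alone was called higher in serum, at 312 and 281 against 176 and 117 (log2 fold change 1.04, limma adjusted p = 0.0898). Its 2i values lay under the threshold that defines members. Hist1h1d, a linker histone gene, measured 379.8 and 338 in serum and 213 and 150.2 in 2i, a log2 fold change of 0.998 just under the threshold. Hist1h1d was called with a pseudocount of 0.1 (1.0016), without serum replicate 2 (1.08) and without 2i replicate 1 (1.25), and was at 0.75 without 2i replicate 2. Hist1h2bc measured 446 and 460.4 in serum and 229 and 235 in 2i, with a log2 fold change of 0.96. All 6 lie on chromosome 13. Histone genes of a class exist in many similar copies, and how reads shared between copies were placed was not checked. The peaks at Hist1h2ai and Hist1h3h are only 697 bp apart.

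Pluripotency factors had 4 members among 9 peaks (44.4%). Sox2 was called higher in serum, at 693 and 819 against 251 and 482 (log2 fold change 1.11 ± 0.33, limma adjusted p = 0.126). Klf2 measured 761 and 472 in serum and 481 and 772 in 2i, and Klf4 measured 652 and 440.4 in serum and 446 and 947 in 2i, so that both overlapped between conditions. Klf5 measured 404 in serum replicate 1 and between 158 and 175 in the other samples. The Sox2 call needed serum replicate 2 and 2i replicate 1, since the log2 fold change was 0.99 without the former and 0.64 without the latter. It was also lost after cyclic loess normalization, at 0.75.

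Chromatin genes had 10 members among 33 peaks (30.3%), and none was called. Trim28, a corepressor that silences retroelements, was the highest, at 1002 and 830.2 in serum and 402 and 629 in 2i (log2 fold change 0.86, limma adjusted p = 0.197). That value was 0.41 after cyclic loess normalization, 0.54 without 2i replicate 1 and 1.18, which was called, without 2i replicate 2. Hmgb1 encodes an architectural protein, and its peak, the longest of the members at 1946 bp, measured 720 and 638 in serum and 670 and 515 in 2i. H2afz, which encodes the histone variant H2A.Z and whose peak lies 2321 bp from that of Dnajb14, measured 742 and 626 in serum and 512 and 433 in 2i. Their log2 fold changes lay between -0.09 and 0.86, and the median was 0.31, or 0.11 after cyclic loess normalization.

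Splicing factors and hnRNPs had 8 members among 24 peaks (33.3%), with a median log2 fold change of 0.48, no call, and serum above 2i without overlap at 6 of the 8 (42.3% of members, 24.9% of all peaks). Hnrnpa0 measured 646 and 610 in serum and 410.4 and 481 in 2i, and Hnrnpab 620.3 and 521 in serum and 483 and 350.5 in 2i. Ribosomal protein genes had 6 members among 35 peaks (17.1%), led by Rpl32 (321 and 473 in serum, 506 and 368 in 2i), Rps20 (331 and 329.8 in serum, 303 and 379 in 2i) and Rps19 (361 and 334 in serum, 260.3 and 289 in 2i). Their median log2 fold change was 0.12 and none was called. Zinc finger protein genes had 14 members among 90 peaks (15.6%) with a median of -0.13, of which Zfp532 was called. Zfp704 measured 378 and 271 in serum, 318 in 2i replicate 1 and 794 in 2i replicate 2. At Zfp777 both 2i values, 396 and 377, lay above the serum values of 204 and 313, with a log2 fold change of -0.61, which was -0.30 without serum replicate 1 and -0.92 without serum replicate 2. After cyclic loess normalization the medians were 0.12 for the splicing list, -0.09 for ribosomal protein genes and -0.29 for zinc finger protein genes, so that the ribosomal list changed sign.

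**Figure D4:**
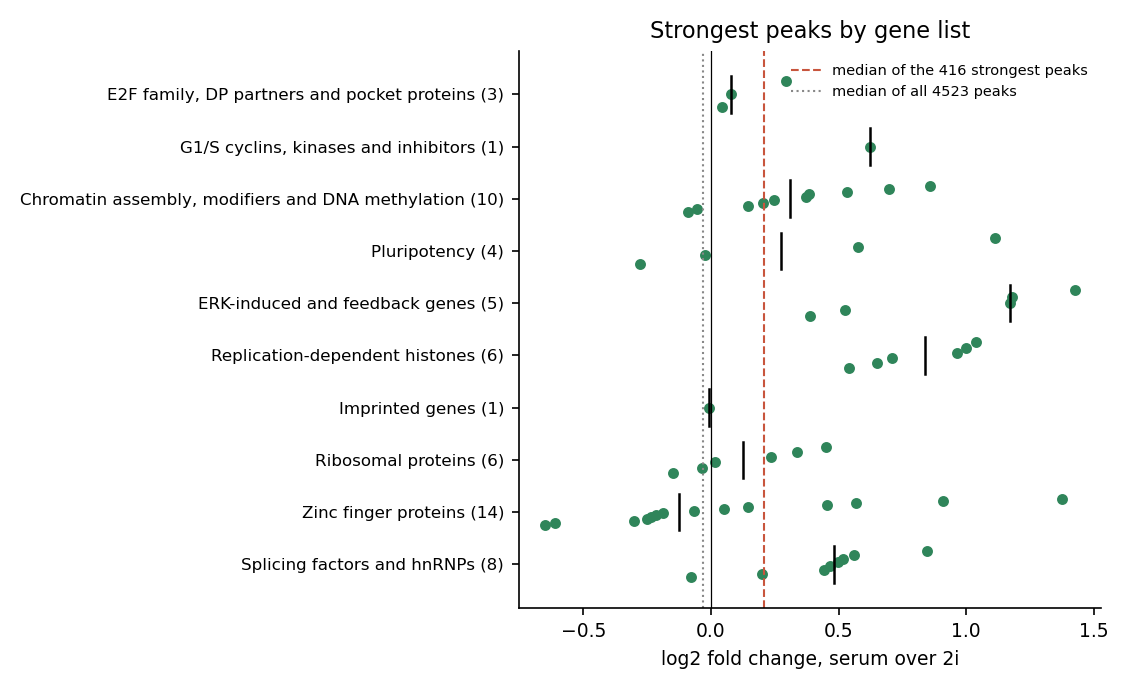
Log2 fold change of serum over 2i for the members nearest to genes of each list, with the number of members in brackets; black bars are list medians. The ERK list had the highest median, 1.17, among lists with more than 1 member, and the dashed and dotted lines mark the medians of the members (0.21) and of all peaks (-0.03).

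Members lay at transcript starts, as did the rest of the peaks. Of the 414 placed members, 401 (96.9%) had their centre within 1000 bp of a start, against 91.3% of all 4509 placed peaks, and the share by signal band went from 86.8% under 50 through 92.8% and 95.4% to 96.9%. The annotation class at the centre was promoter, from 1000 bp upstream to 100 bp downstream of a start, for 278 members (67.1%, all peaks 65.6%), intron for 48 (11.6%, all 10.3%), 5′ untranslated exon for 46 (11.1%, all 9.63%), other exon for 35 (8.45%, all 8.92%) and intergenic for 6 (1.45%, all 5.32%). The single member in a 3′ untranslated exon was nearest to Aars. The centre was downstream of the nearest start at 65.5% of members and 67.0% of all peaks.

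The 13 members farther than 1000 bp from a start included Mir17hg and a peak 4062 bp downstream of the start of Hes1, a Notch target gene that also had a member 816 bp upstream. The distal Hes1 peak measured 376 and 432 in serum, 242 in 2i replicate 1 and 682 in 2i replicate 2.

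Members were longer than weaker peaks, with a median length of 777 bp against 402 bp under a mean of 50, and signal and length were related across all peaks (Spearman's rho 0.83, n = 4523 peaks that share their libraries). Among the 416 members alone rho was 0.23. What links length and signal was not tested. Ranked by signal per kb, 317 of the 416 highest peaks were members, Grb10 and Dnajb14 were the top pair, and Hmgb1 fell from rank 18 to rank 312.

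Base composition differed between bands of signal, but among the 414 placed members the share of G and C and the mean signal had a Spearman's rho of only 0.051. In 401 bases at the centre the median share of G and C was 73.6% in the band under 50, 75.6% from 50 to 100, 77.3% from 100 to 200 and 78.6% in members. It was 58.1% around all 45973 protein-coding transcript starts of the annotation. At least 70% was reached by 93.0% of members and by 86.0% of all peaks. Under 55% were 9 members (2.17%, all peaks 2.31%), among them Hist1h2bc and 5 peaks at U1, U2 and U3 small RNA genes on chromosome 11. The small RNA genes are repeated in the genome, and their log2 fold changes ran from -0.06 to 0.43.

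**Figure D5:**
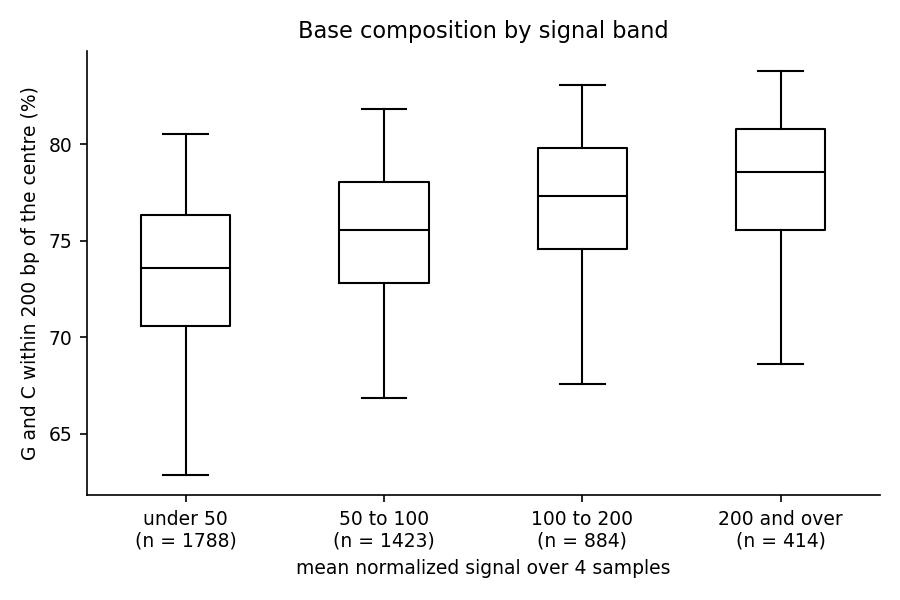
Share of G and C in 401 bases at the peak centre (vertical axis, %) by band of mean normalized signal. Boxes are quartiles, lines inside them medians and whiskers the 5th to 95th percentiles over peaks; the medians go from 73.6% to 78.6%.

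The canonical E2F words within 100 bp of the centre, in windows of 201 bases, were found in 1.69% of members (95% Clopper-Pearson interval 0.682% to 3.45%, counting error only), in 2.0% of all placed peaks and in 1.94% of windows at protein-coding starts. Over the whole peak they were found in 11.8% of members and 6.61% of all peaks, but members are longer, and per kb of peak the words numbered 0.161 in members and 0.136 in all peaks. The looser word GGCGGGA, on either strand and able to overlap a GC box by shared letters, was within 100 bp of the centre in 23.4% of members, 23.6% of all peaks and 10.8% of starts. The GC box GGGCGG was in 80.7% of members, 77.4% of all peaks and 38.6% of starts. Searched in the same windows and on both strands, CCAAT was in 5.07% of members against 7.7% of all peaks and 24.6% of starts, the ETS word CCGGAAG in 3.62% against 6.14% and 8.61%, the NRF1 motif in 3.14% against 5.57% and 4.5%, the YY1 word AAGATGG in 3.86% against 4.3% and 5.34%, the E-box CACGTG in 3.86% against 4.44% and 5.22%, and the cAMP response word TGACGTCA in 0.242% against 0.71% and 1.65%. A missing match says only that these letters are not in the window. The sets were not matched for base composition, with a median of 78.6% G and C in members and 58.1% at starts. Words of G and C alone are favored in the former and words with A or T in the latter. The shares therefore do not show gain or loss of sites for a factor. Of the 7 members with a canonical word, Tpt1 and Pim3 were called higher in serum, where 7.21% of members and 4.82% of all peaks were. Tpt1, which encodes translationally controlled tumor protein, passed adjustment, at 568 and 374 against 181 and 186 (log2 fold change 1.32, limma adjusted p = 0.0406). Both 2i values of Tpt1 lay under the threshold that defines members. Pim3 was called before adjustment only. With only 7 members, these calls do not tie the word to a direction.

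Members were spread over the autosomes. They made up 14.3% of the peaks on chromosome 6, 13.2% on chromosome 8 and 11.7% on chromosome 11, but 5.2% on chromosome 9, and none of the 65 peaks on the X chromosome. Members stood within 10000 bp of each other in 8 pairs, 5 of which were peaks at the same gene, at Hnrnpu, Hes1, Hmga1, Phf17 and Rcc2.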

How the data were processed

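E2F1 ChIP-seq was done on 2 serum and 2 2i samples. Per the methods, the authors fixed the cells, sequenced paired ends, aligned to mm9 with BWA, removed duplicates and blacklisted regions, called peaks per sample with MACS2, intersected replicates, merged serum and 2i peaks and counted reads with bedtools. Versions are not given in the sources used here. The values the authors deposited are a signal per peak and sample, taken here as read counts divided by 1 factor per sample. All but 9 of 18092 values were whole multiples of a step per sample, taken as 1 read (within 0.01 reads), and no member was among the 9. The deposited unit is not a count, so no count test was run.

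Members had a mean of at least 200. Peaks were placed by their centre on NCBIM37 with GENCODE M1, and 14 peaks on unplaced contigs, 2 of them members, had no position or sequence here. A few members are counted but not described, as their sequence is not reported here. Coordinates are as deposited. Serum was compared with 2i by limma 3.58.1 in R 4.3.3 on log2(value + 1), two-sided, with a variance trend and no block, over all 4523 peaks. Fold changes are on that scale. An exact permutation test of a single peak cannot go below 0.333 with 2 against 2, so each call rests on the spread shared across peaks. The other steps used Python 3.11.15, pandas 2.3.3 and matplotlib 3.10.9.

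By rule, named peaks were the 12 highest, up to 6 called without overlap in each direction, the 4 with the largest shared replicate difference, the 4 steadiest, 4 on each side of the threshold and the 3 highest per gene list. Others are named as examples of a count, a sequence or a position. The members and lists were chosen with earlier results of these data known. Alternatives were pseudocounts of 0.1 and 8, a minimum mean of 50, 3 scalings, no trend, a replicate block, leaving out each library, and other thresholds, distances and motif windows.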

Additional observations from a re-analysis of the deposited data

How the results depend on the processing

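The number of members was 688 at a threshold of 150, 162 at 300 and 236 where every sample had to reach 200, and ran from 393 to 432 with a library left out. Members called without adjustment numbered 23 to 34 under the other scalings, pseudocounts, filter and variance model, against 33, and 27 to 47 with a library left out. Called after adjustment were 0 without a variance trend, where 60 members had an unadjusted p under 0.05, and 0 to 4 with a library left out, against 16. With the replicate block 33 members (7.93%, all peaks 5.99%) were called after adjustment, 30 higher in serum and 3 higher in 2i. Same-numbered replicates had a correlation of their log2 ratios of 0.145 across members and 0.047 across all peaks. The labels do not pair them. The tests on recovered reads that had been planned as alternatives, with edgeR and DESeq2, were not run, because the deposited unit is not a count. The median log2 fold change was -0.017 after cyclic loess normalization, 0.12 after rescaling to the same total and 0.16 to 0.29 with a library left out, the highest without 2i replicate 2. The cause was not tested. The share within reach of a start was 94.0% for protein-coding starts and 90.6% at 500 bp. The share with an E2F word was 11.8% over the whole peak, 5.31% within 200 bp and 23.4% for the looser word, by wider windows or a shorter word. The count without overlap was 205 after rescaling to the same total and 217 by the median of ratios, against 217.

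None of the 33 calls changed sign under any alternative run. Among named peaks without a call, cyclic loess normalization turned Dnajb14 to -0.10, Rybp to -0.41, U3 to -0.14, E2f1 to -0.16 and Hmgb1 to -0.22, and rescaling to the same total turned Rybp to -0.011, U3 to -0.078 and E2f1 to -0.046. With a library left out, the log2 fold change ran from -1.24 to 1.22 at Grb10, -1.64 to 0.51 at Rev1, -0.69 to 0.62 at Mllt6, -0.13 to 0.29 at Rybp, -0.31 to 0.16 at Ubtf, -0.082 to 1.42 at Lmln, -0.21 to 0.81 at Tsc22d1, -0.013 to 0.037 at U3, -0.29 to 0.072 at Epm2a, -0.032 to 0.62 at Tfdp1, -0.18 to 0.27 at E2f1, -0.37 to 0.32 at Klf2, -0.82 to 0.26 at Klf4, -0.43 to 0.13 at Rpl32, -0.20 to 0.13 at Rps20 and -1.31 to 0.0087 at Zfp704.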
